A study of Homo sapiens with 4 samples.

Results

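The epidermal growth factor receptor (EGFR) family was examined in HaCaT cells after silencing of ALKBH5. Its 10 members were taken by gene name from the 58735 genes of the deposited tables, and comprised 3 receptors (EGFR, ERBB2 and ERBB3) and 7 ligands (AREG, EREG, HBEGF, TGFA, BTC, EPGN and NRG1). HaCaT is an established line of human keratinocytes, labelled WT in the control group. Cells of the siControl group were transfected with a control siRNA and cells of the siALKBH5 group with an siRNA against ALKBH5, at 200 pmol with a lipid reagent in both groups, and 2 libraries were sequenced per group. ALKBH5 removes N6-methyladenosine (m6A) from RNA, and the study asked how its loss alters gene expression in keratinocytes. The groups are transient knockdowns in 1 cell line, and the labels name neither separate cultures nor which of the study's siRNAs was used, so p-values measure the spread between these libraries only.

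EGFR family receptors are membrane tyrosine kinases that pair with one another when a ligand binds. ERBB2 binds no known ligand and acts as a partner, and ERBB3 has little kinase activity and signals through its partners. AREG, EREG, HBEGF, TGFA, BTC and EPGN bind EGFR, and of these HBEGF, BTC and EREG also bind ERBB4, whereas NRG1 binds ERBB3 and ERBB4. The ligands are made as membrane precursors that ADAM proteases release, and active receptors signal through the Ras-ERK and PI3K-AKT relays. In skin, EGFR and its ligands are known for driving the proliferation and migration of keratinocytes at wounds.

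The libraries held 16017502 to 18837807 counts on genes. The targeted gene, ALKBH5, was covered by 1512 and 1576 reads in siControl against 956 and 816 in siALKBH5, and its log2 fold change of -0.85 had a standard error of 0.053 and an adjusted p of 6.4e-15 (edgeR quasi-likelihood test, Benjamini-Hochberg over all tested genes). All 7 keratinocyte markers, KRT5, KRT14, KRT6A, TP63, ITGA6, ITGB4 and SFN, had more than 3 counts in each library. Their summed level was 16083 to 16498 CPM (counts relative to the library size, scaled by TMM) in siControl and 22057 to 22098 CPM in siALKBH5. Of these markers KRT5, KRT14, KRT6A and SFN were higher (log2 fold changes of 0.68, 0.22, 0.63 and 0.22), whereas TP63, ITGA6 and ITGB4 were lower (-0.091, -0.070 and -0.058), all 7 at an adjusted p under 0.05 by edgeR. Of 7 fibroblast markers, 3 were at 0 in all libraries (COL1A2, PDGFRA and PDGFRB). The list summed to between 21.9 and 22.8 CPM in siControl and between 18.7 and 19.1 CPM in siALKBH5. COL1A1 was detected, at 268 and 309 counts in siControl against 310 and 267 in siALKBH5. DCN had 52 and 71 counts against 24 and 29, and LUM had 33 and 31 against 15 and 16. Melanocyte markers summed to at most 3.88 CPM, with TYR and TYRP1 at 0. PMEL of this list had 42 and 38 counts in siControl against 45 and 61 in siALKBH5. Immune markers summed to at most 4.22 CPM, with MS4A1 at 0. CD14 of this list had 34 and 50 counts in siControl against 74 and 61 in siALKBH5. The endothelial list summed to 32.5 CPM in siControl and to 34.9 and 35.4 CPM in siALKBH5. PECAM1 of this list had no more than 1 count in any library. VWF was detected, at 293 and 348 counts in siControl against 501 and 437 in siALKBH5. CDH5 had 231 and 237 counts against 151 and 147. The part of these marker shifts in the results below was not tested.

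The strands of both ALKBH5 siRNAs of the study are shown, since the labels do not say which was used here. The control siRNA is not in the study's oligonucleotide list, so its strands are not shown. Capitals mark the seed, bases 2 to 8 from the 5′ end, as given in the study's oligonucleotide list without the overhang.
ALKBH5-si1 antisense: uCGCCGAAgaaguacuugu
ALKBH5-si1 sense: aCAAGUACuucuucggcga
ALKBH5-si2 antisense: uAGUCGUUgaugacggcgc
ALKBH5-si2 sense: gCGCCGUCaucaacgacua
The reverse complement of each seed, which is TTCGGCG for the si1 antisense strand, GTACTTG for the si1 sense strand, AACGACT for the si2 antisense strand and GACGGCG for the si2 sense strand, was searched on the sense strand in the 3′UTR of the principal GENCODE 29 transcript of each member. EREG was the only member with a match, 1 copy of GTACTTG. It is shown here in capitals within the 30-base window chr4:74384916-74384945 (GRCh38, plus strand).
EREG: ctgtattttaatGTACTTGaaaaatgtttt
This heptamer was present in 8.53% of the 12369 tested genes with a 3′UTR, and the seed matches of the other strands in 0.388% to 1.33%. The median log2 fold change was -0.055 over tested genes with GTACTTG and 0.0049 over those without. It was -0.046 against -0.00075 for AACGACT, 0.087 against -0.0017 for TTCGGCG and 0.017 against -0.0017 for GACGGCG. Whether a seed acted on any of these genes was not tested. The annotated 3′UTR of the NRG1 transcript was only 5 bases long, so its search says little.

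Levels of the members were compared per length, as CPM per kilobase of the gene length listed in the tables. In siControl the receptors stood above the 7 ligands, from EGFR at 47.9 ± 0.636 CPM per kb (SD, n = 2) to ERBB2 at 29.5 ± 1.15 and ERBB3 at 9.78 ± 0.264. TGFA was the most abundant of the 7 ligands at 5.34 ± 0.0743 CPM per kb, followed by HBEGF at 2.41 ± 0.0045 and NRG1 at 2.20 ± 0.285. AREG reached 1.31 ± 0.278 CPM per kb, and the remaining ligands lay lower, with BTC at 0.540 ± 0.0167, EREG at 0.410 ± 0.141 and EPGN at 0.303 ± 0.0905. EREG and EPGN overlapped in siControl, and all other neighbours in this order were separated there, HBEGF and NRG1 by less than 0.01 CPM per kb. In siALKBH5 the libraries of HBEGF and NRG1 overlapped, as did those of BTC and EREG.

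**Figure D1:**
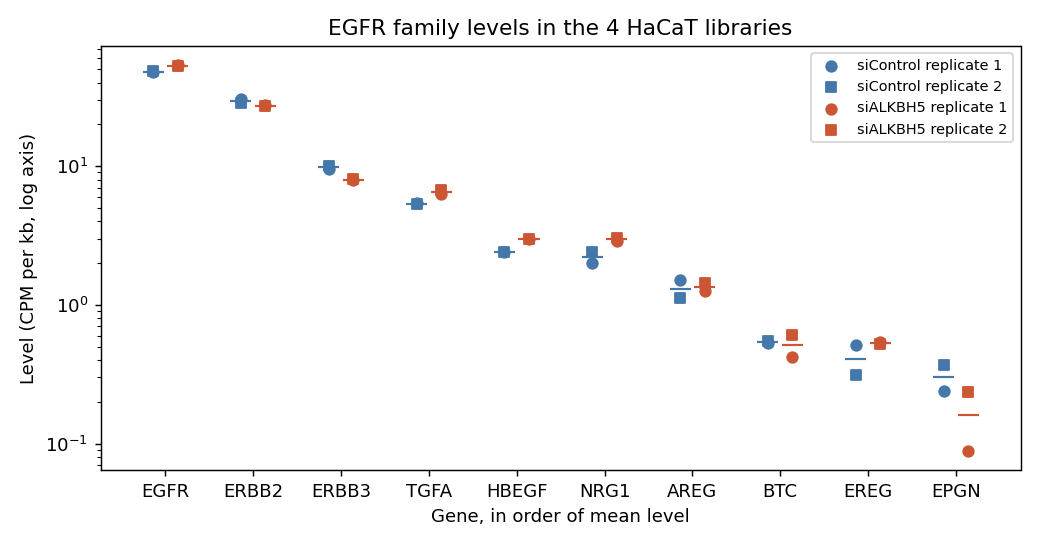
Level of each EGFR family member in CPM per kb (log axis) in the 2 siControl (blue) and 2 siALKBH5 (red) libraries; circles and squares are replicates 1 and 2 and short lines are group means. The receptors lie above every ligand among the members, and AREG, BTC, EREG and EPGN are the 4 lowest.

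The 4 members of lowest level are neighbours in the genome. EPGN, EREG, AREG and BTC lie on chromosome 4 of GRCh38 from 74308473 to 74794686, a span of 486 kb that holds 6 annotated genes. The other 2 genes of the span, AC021180.1 and AC239584.1, had 0 counts in all libraries. Each of the other members lies on a chromosome that holds no other member. EGFR is on chromosome 7 from 55019021 to 55211628, ERBB2 on chromosome 17 from 39687914 to 39730426 and ERBB3 on chromosome 12 from 56076799 to 56103505. HBEGF is on chromosome 5 from 140332843 to 140346631, TGFA on chromosome 2 from 70447280 to 70554193 and NRG1 on chromosome 8 from 31639386 to 32767959.

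After ALKBH5 knockdown, 3 members were higher (EGFR, TGFA and NRG1) and 2 were lower (ERBB2 and ERBB3) at an adjusted p under 0.05, among the 9 members with enough counts to be tested. EPGN did not pass the filter on low counts. In the same test 36.6% of the 15075 genes tested passed this threshold, 19.3% as higher and 17.3% as lower. No member reached an absolute log2 fold change of 1, the study's second threshold, which 2.92% of all tested genes did together with the first. The silenced gene ALKBH5 did not reach this fold threshold either, at a log2 fold change of -0.85 and 55.5% of its siControl level. Both siALKBH5 libraries lay outside the range of the siControl libraries for 7 of the 9 members, and this held for 66.3% of all tested genes. The median log2 fold change was 0.14 over the 9 members and -0.0081 over all tested genes. By role, 1 receptor was higher and 2 were lower, and 2 of the 6 tested ligands were higher and 0 lower.

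EGFR, the main receptor of keratinocytes, rose by a small amount. It had 594 and 606 CPM in the siControl libraries and 669 and 655 CPM in the siALKBH5 libraries, from 9592, 10914, 12506 and 10789 counts. Both knockdown libraries were higher than both control libraries, and the log2 fold change was 0.14 (standard error 0.023, 95% interval 0.095 to 0.19, adjusted p = 5.9e-06 by edgeR). This corresponds to a fold of 1.10, with an interval of 1.07 to 1.14. EGFR shares 186 exon bases with the antisense gene EGFR-AS1, which had between 5 and 14 counts in each library (adjusted p = 0.17 by edgeR).

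ERBB2 fell slightly. Its level was 313 and 296 CPM in siControl and 283 and 279 CPM in siALKBH5, so the groups did not overlap. The log2 fold change of ERBB2 was -0.12 (standard error 0.030, 95% interval -0.18 to -0.054, adjusted p = 0.0025 by edgeR), a fold of 0.923. This call rested on 1 library, since without siControl replicate 1 the log2 fold change was -0.073 with an adjusted p of 0.13 by edgeR. ERBB2 shares 194 exon bases, 1.88% of its own, with PGAP3 on the opposite strand, and 571, or 5.53%, with MIEN1 on the opposite strand. PGAP3, a lipid remodelling enzyme of GPI anchors, was counted 900 and 1021 times in siControl against 720 and 650 times in siALKBH5 (log2 fold change -0.53, adjusted p = 1.7e-08 by edgeR), and MIEN1 had a log2 fold change of -0.014 (adjusted p = 0.89). No strand setting of the counting is given in the sources used here, so reads of the shared bases cannot be assigned to a strand.

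ERBB3, the neuregulin receptor, had the largest decrease of the 3 receptors. It had 86.7 and 90.1 CPM in siControl and 71.2 and 73.5 CPM in siALKBH5. Both control libraries were above both knockdown libraries, with a log2 fold change of -0.29 (standard error 0.047, 95% interval -0.39 to -0.19, adjusted p = 8.1e-06 by edgeR), or 81.9% of the control level. With each library left out in turn it stayed between -0.31 and -0.26. A gene model on the same strand, AC034102.2, shares 31 exon bases with ERBB3 and had 0 counts in all libraries.

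**Figure D2:**
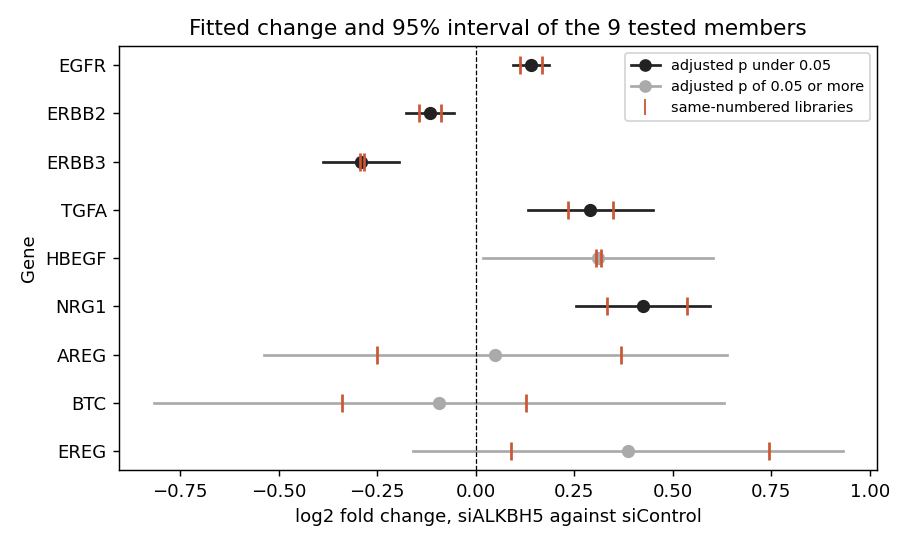
Fitted log2 fold change (siALKBH5 against siControl, points) with 95% interval (lines) of the 9 tested members, dark where the adjusted p was under 0.05; red ticks are the ratios of the libraries with the same replicate number. EGFR, TGFA and NRG1 lie above 0, ERBB2 and ERBB3 below 0, and the intervals of AREG, BTC and EREG span 0.

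The make-up of the receptor mRNA differed between the groups more than its sum did. The summed receptor level was 87.4 and 87.0 CPM per kb in siControl and 88.7 and 87.4 CPM per kb in siALKBH5. EGFR made up 54.3% and 55.6% of this sum in siControl and 60.2% and 59.8% in siALKBH5. The share of ERBB2 was 34.7% and 33.0% in siControl and 30.9% in both siALKBH5 libraries, and that of ERBB3 was 11.0% and 11.4% against 8.88% and 9.31%. These shares do not depend on the scaling of a library. The ratio of EGFR to ERBB3 per length was 4.95 and 4.85 in siControl and 6.78 and 6.43 in siALKBH5, and that of EGFR to ERBB2 was 1.57 and 1.69 against 1.94 in both siALKBH5 libraries. Neither ratio overlapped between the groups, and no permutation test was informative, since 2 libraries against 2 cannot give an exact two-sided p below 0.333.

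**Figure D3:**
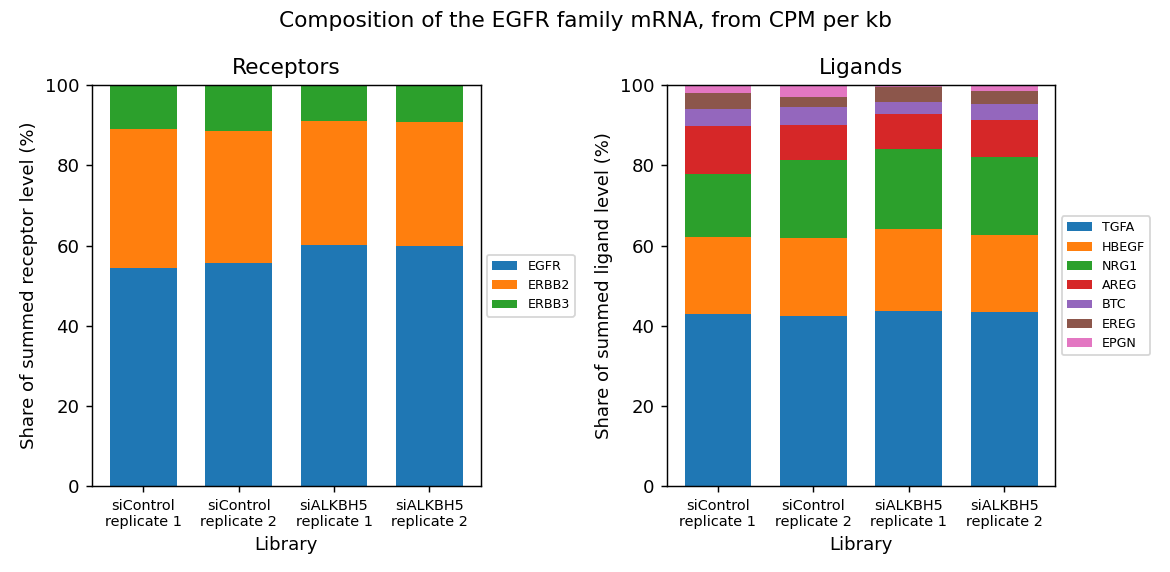
Share (%) of each gene in the summed receptor level (left) and summed ligand level (right), computed from CPM per kb, in each of the 4 libraries. The EGFR segment is 54.3% and 55.6% in siControl and 60.2% and 59.8% in siALKBH5, whereas TGFA holds between 42.5% and 43.6% of the ligand sum in every library.

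Among the ligands, TGFA (transforming growth factor alpha), the classic autocrine growth factor of keratinocytes, rose. It was measured at 26.8 and 26.2 CPM in siControl and at 31.5 and 33.4 CPM in siALKBH5, with both knockdown libraries above both control libraries. The log2 fold change of TGFA was 0.29 (standard error 0.077, 95% interval 0.13 to 0.45, adjusted p = 0.0032 by edgeR), a fold of 1.22. With DESeq2 the adjusted p was 0.055 at a log2 fold change of 0.29, which misses the threshold.

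NRG1 (neuregulin 1), a ligand of ERBB3, showed the largest rise of the called members. Its counts were 365 and 490 in siControl and 614 and 565 in siALKBH5, or 22.6 and 27.2 CPM against 32.8 and 34.3 CPM. The siControl libraries differed more from each other than the siALKBH5 libraries did, but the groups did not overlap. Its log2 fold change was 0.42 (standard error 0.084, 95% interval 0.25 to 0.59, adjusted p = 0.00012 by edgeR), a fold of 1.34. Leaving out siControl replicate 1 or any other library kept it between 0.30 and 0.57. NRG1 was thus higher, and its receptor ERBB3 lower, in both siALKBH5 libraries.

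HBEGF, the heparin-binding ligand induced in wounded epidermis, had 7.25 and 7.27 CPM in siControl and 9.03 and 8.98 CPM in siALKBH5. The groups were separated and the libraries of a group were close, yet with 117 and 131 counts against 169 and 148 the log2 fold change of 0.31 had a 95% interval of 0.019 to 0.60 and an adjusted p of 0.089 by edgeR. HBEGF thus did not pass the threshold, and its point estimate was similar to that of TGFA.

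The chromosome 4 ligands had few reads and none was called. EREG (epiregulin) was counted 47 and 32 times in siControl against 58 and 49 times in siALKBH5, with a log2 fold change of 0.39 (95% interval -0.16 to 0.93, adjusted p = 0.28 by edgeR) that was 0.78 without siControl replicate 1 and 0.061 without siControl replicate 2. AREG (amphiregulin) was counted 40 and 33 times in siControl and 39 times in both siALKBH5 libraries, and the groups overlapped. Its log2 fold change was 0.05, with a 95% interval of -0.54 to 0.64, so a fold between 0.690 and 1.56 was within its error (adjusted p = 0.92 by edgeR). BTC (betacellulin) was at 24 and 28 counts against 22 and 28, a log2 fold change of -0.093 (95% interval -0.82 to 0.63, adjusted p = 0.87 by edgeR). EPGN (epigen) had 7 and 12 counts against 3 and 7, which is too few for the test. At this depth changes of the size seen for EGFR or TGFA were not detectable in these 4 genes.

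The summed level of the 7 ligands was 12.6 and 12.4 CPM per kb in siControl and 14.5 and 15.5 CPM per kb in siALKBH5. TGFA made up 42.9% and 42.5% of it in siControl and 43.6% and 43.4% in siALKBH5. HBEGF held between 19.1% and 20.6%, and NRG1 held 15.9% and 19.3% in siControl and 19.9% and 19.5% in siALKBH5. The ratio of summed receptor to summed ligand level was 6.95 and 6.996 in siControl and 6.10 and 5.63 in siALKBH5. With EGF, NRG2, NRG3 and NRG4 added to the ligands, a choice made after seeing the data, the ratio was 3.02 and 3.12 in siControl and 2.90 and 2.87 in siALKBH5. The siALKBH5 mean was 84.1% of the siControl mean for the 7 ligands and 94.1% with the others added, a description of 4 libraries with no test.

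The 5 family genes outside the members were read beside them. The receptor ERBB4 was counted 3 and 17 times in siControl against 5 and 4 times in siALKBH5, and EGF itself had 1 and 0 against 5 and 2. NRG3 had at most 3 counts in any library. The neuregulins NRG2 and NRG4, ligands of ERBB4 (and NRG2 also of ERBB3), were well measured. NRG2 stood at 11.8 ± 0.198 CPM per kb (SD, n = 2) in siControl and 11.9 ± 0.630 in siALKBH5. These levels are above each of the 7 ligands and above the receptor ERBB3, at 9.78 and 8.01. NRG4, at 4.09 ± 0.401 in siControl and 3.58 ± 0.199 in siALKBH5, lay above HBEGF and NRG1 and below TGFA. The log2 fold change of NRG2 was 0.0058 (95% interval -0.11 to 0.13, adjusted p = 0.95 by edgeR), and that of NRG4 was -0.19 (95% interval -0.39 to 0.015, adjusted p = 0.15). For NRG4 it was -0.084 without siControl replicate 1 and -0.29 without siControl replicate 2.

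In the 3′UTRs, copies of GGACT (same strand as the gene, read as DNA) were counted, because these are the core letters of the motif best known for m6A, the mark that ALKBH5 removes. This motif occurred in the 3′UTR of 58.7% of the 12369 tested genes. EGFR had 5 copies in 6011 bases, TGFA 3 in 3579, HBEGF 3 in 1456, EREG 3 in 3943 and BTC 1 in 1918. ERBB2 (618 bases), ERBB3 (1450 bases), AREG (269 bases) and EPGN (670 bases) had 0. The study gives the m6A motif as RRACH (R is G or A, H is A, C or U), of which GGACT is a single form. Other forms and the coding sequence were not searched, so a count of 0 does not mean that a gene lacks the motif. NRG1, a called member, could not be assessed, since its annotated 3′UTR held only 5 bases. The copy nearest to the stop codon is shown for the EGFR and TGFA 3′UTRs, the 2 called members with a match. The 29-base windows shown are chr7:55207443-55207471 (plus strand) and chr2:70450814-70450842 (minus strand) of GRCh38.
EGFR: agcaaaggaaatGGACTcatagatgctaa
TGFA: gtttggccaggtGGACTgtggcagatcaa
The capitals mark the letters searched, which start 1838 bases after the stop codon in EGFR and 29 bases after it in TGFA. No m6A data were analysed here, so whether these letters are methylated in HaCaT cells was not tested. The median log2 fold change was -0.0049 over tested genes with GGACT in the 3′UTR and 0.0053 over those without.

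Of 7 genes that release or escort the ligands, 6 could be tested, 1 rose and 1 fell, with a median log2 fold change of -0.073. The share called was thus 33.3%, near the 36.6% of all tested genes. ADAM15, a membrane protease, rose by 0.64 (standard error 0.035, adjusted p = 1.9e-16 by edgeR), from 144 ± 5.27 to 224 ± 4.13 CPM (SD, n = 2). ADAM10, the sheddase of betacellulin, fell from 216 ± 7.35 to 190 ± 1.41 CPM, a log2 fold change of -0.19 (adjusted p = 2.7e-05 by edgeR). ADAM17, the main sheddase of TGFA, AREG and HBEGF, had 641 and 755 reads in siControl against 743 and 624 in siALKBH5 (log2 fold change -0.073, adjusted p = 0.43). RHBDF1 and RHBDF2, the iRhoms that escort ADAM17, had log2 fold changes of -0.073 and -0.10 with adjusted p-values of 0.34 and 0.56 by edgeR.

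Of 24 adaptors and relay genes of the Ras-ERK and PI3K routes, 23 could be tested, 8 were higher and 4 were lower, with a median log2 fold change of -0.020. This is 52.2% called, where 36.6% of all tested genes were called, 19.3% as higher and 17.3% as lower. MAPK3 (ERK1) rose by 0.35 and MAP2K2 (MEK2) by 0.30 on the log2 scale (adjusted p = 3.6e-06 and 1.7e-09 by edgeR). MAP2K1 (MEK1), at 0.23, was also called, and is named after its value was seen. PIK3CB, likewise named afterwards, was called at 0.20 (adjusted p = 0.0085 by edgeR) but not with DESeq2. The Ras gene HRAS had a log2 fold change of -0.15 (adjusted p = 0.033 by edgeR), and NRAS was at -0.054 (adjusted p = 0.57). PIK3R1, the regulatory subunit of PI3-kinase, fell by 0.39 on the log2 scale (adjusted p = 0.00015), and SOS2, a Ras exchange factor, had a log2 fold change of -0.19 (adjusted p = 0.015) that missed the threshold without siControl replicate 2 (-0.18, adjusted p = 0.075 by edgeR) and without siALKBH5 replicate 1 (-0.12, adjusted p = 0.22). HRAS was not called without siControl replicate 1 (-0.074, adjusted p = 0.46 by edgeR) or without siALKBH5 replicate 2 (-0.13, adjusted p = 0.14).

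Inhibitors of the receptors and of Ras-ERK signalling comprised 14 genes, of which 13 could be tested, 4 were higher and 1 was lower (median log2 fold change 0.011). The 38.5% called lay near the 36.6% of all tested genes. ERRFI1, which binds and inhibits the EGFR kinase, had 115 and 97 reads in siControl against 182 and 173 in siALKBH5, with a log2 fold change of 0.70 and its standard error at 0.15 (adjusted p = 0.00042 by edgeR). DUSP6, a phosphatase of ERK, had 88 and 91 reads in siControl against 148 and 149 in siALKBH5 (log2 fold change 0.69, adjusted p = 0.00078). The ubiquitin ligases CBL and CBLC rose by 0.29 and 0.28 (adjusted p = 4.0e-07 and 0.0010 by edgeR). SPRED1, an inhibitor of Ras-ERK signalling, had a log2 fold change of -0.26 (adjusted p = 0.036), which was not called without siControl replicate 1 (-0.13, adjusted p = 0.45 by edgeR) or without siALKBH5 replicate 1 (-0.17, adjusted p = 0.26).

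Genes listed here as responding to ERK activity went both ways. Genes of the inhibitor list, such as DUSP6 and ERRFI1, were not counted again in this list. Of 11 genes 10 could be tested, 3 were higher and 4 were lower, and 2 also passed the fold threshold of 1 (median log2 fold change 0.11). Over all tested genes 36.6% were called and 2.92% also passed the fold threshold. ETV4, an ETS factor, had 64 and 72 reads in siControl against 203 and 149 in siALKBH5, with a log2 fold change of 1.32 and its standard error at 0.17 (adjusted p = 6.1e-08 by edgeR). PHLDA1 rose by 0.49 (adjusted p = 1.4e-08). FOS, an immediate early gene, had 265 and 287 reads in siControl against 133 and 108 in siALKBH5, with a log2 fold change of -1.24 and its standard error at 0.13 (adjusted p = 1.2e-09 by edgeR). EPHA4 was at -0.72 (adjusted p = 1.3e-06), EGR1 at -0.43 (adjusted p = 0.0029, and 0.0503 with DESeq2) and CCND1 at -0.16 (adjusted p = 3.4e-05 by edgeR). IER3, at 0.30 with an adjusted p of 0.010 by edgeR, was not called without siControl replicate 2 (0.13, adjusted p = 0.37), and stood at 0.48 without siControl replicate 1.

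**Figure D4:**
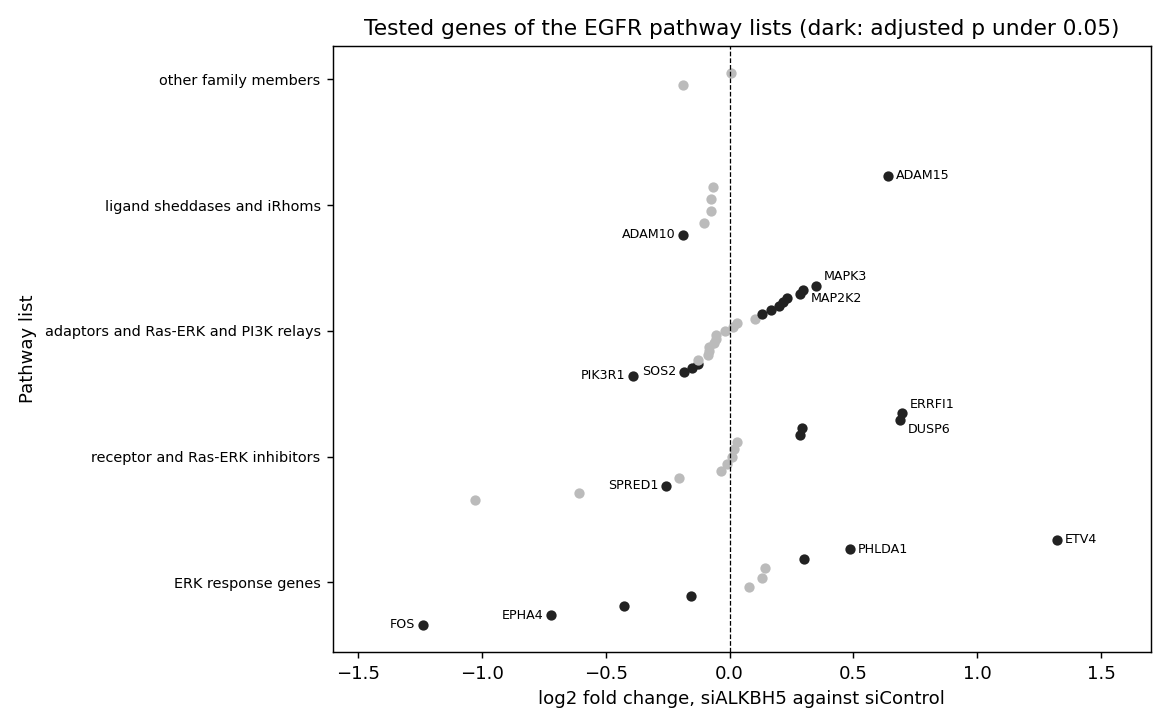
Log2 fold change (siALKBH5 against siControl) of each tested gene in 5 lists of the EGFR pathway, 1 point per gene, dark where the adjusted p was under 0.05; vertical offsets within a list only separate the points. ETV4 at 1.32 and FOS at -1.24 are the extremes, and the relay genes lie between -0.39 and 0.35.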

How the data were processed

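RNA-seq of poly-A RNA was performed on 2 siControl and 2 siALKBH5 libraries of HaCaT cells. The authors deposited raw counts per gene without normalization, and FPKM scaled within each table, which were not used. The submitters' processing notes name HISAT2 2.0.5, featureCounts 1.5.0-p3, DESeq2 1.20.0 and hg38, and the strand setting is not given in the sources used here. The gene lengths and other columns deposited with the tables follow GENCODE 29 on GRCh38, with 58735 of 58735 identifiers matching in coordinates, and the length was used for CPM per kb. The log2 fold changes and p-values deposited by the authors compare 1 library with 1 and were not used. The test was the quasi-likelihood F test of edgeR 4.0.16 under R 4.3.3, on counts filtered with filterByExpr and scaled by TMM, comparing siALKBH5 with siControl and no covariates, with Benjamini-Hochberg adjustment over 15075 genes. Calls required an adjusted p below 0.05. Standard errors and 95% intervals come from the same model and cover the spread between libraries. A floor of 3 counts covers counting error only. Libraries of a group differed beyond sampling noise (chi-square per degree of freedom 1.73 and 1.85). This extra spread was small, with a common coefficient of variation of 0.025 fitted by edgeR, and the p-values rest on it. Whether separate cultures would vary more was not tested. On simulated data with 2-fold changes in 200 genes, 193 changed genes were among the 15044 tested. Of these edgeR recovered 164 and made 3 false calls, and DESeq2 1.42.0 recovered 147 and made 0. All genes were simulated with the same dispersion, fitted to these libraries, so the false calls give no error rate for the real data. Recovery of changes below 2-fold, such as those of the members, was not tested. Alternatives were DESeq2, other scalings and filters, a replicate block, and each library left out. The members and lists were chosen with earlier results of these data known. Named are the members, ALKBH5, ERBB4, EGF, NRG2, NRG3 and NRG4. Also named are the 2 highest and 2 lowest called genes in each other list, and genes that share exon bases with a member. ADAM17, RHBDF1, RHBDF2, NRAS, HRAS, MAP2K1, PIK3CB, CBL, CBLC, EGR1, CCND1 and IER3 were added after their values were seen. All 4 libraries entered each fit except where 1 was left out. Some genes of the lists are not reported here by name.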

Additional observations from a re-analysis of the deposited data

How the results depend on the processing

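With DESeq2, 1827 genes were higher and 1229 lower against 2913 and 2610 in the edgeR test, and 2 members were higher and 2 lower. The cause was not tested. The number of lower members was 1 to 2 with each library left out in turn, at 1 without siControl replicate 1, and the number of higher members stayed at 3. Where 1 library of a group was left, it was assumed to vary like those of the other group. With the replicate block 3091 genes were higher and 2831 lower, and the member counts were 3 and 2. The labels do not say that the replicate number marks a shared culture, so the pairing was not used. Deviations of same-numbered libraries from their group means correlated at 0.049. With 2 libraries per group these deviations mirror each other and hold counting noise, so this value cannot show whether libraries were paired. EGFR, ERBB3 and NRG1 passed the threshold under all 10 alternatives. Direction turned for 4 genes, none of them called. Over fits lacking 1 library, AREG's log2 fold change ranged from -0.16 to 0.28 (-0.037 without siALKBH5 replicate 2), that of BTC from -0.37 to 0.16, that of NRG2 from -0.050 to 0.059 (-0.012 without siControl replicate 2) and that of MIEN1 from -0.027 to 0.0036. NRG2 was at -0.016 with library size only. DESeq2 also did not call TGFA, SOS2, SPRED1, HRAS, PIK3CB, EGR1 or IER3, and without a filter SPRED1 and HRAS missed the threshold (adjusted p = 0.055 and 0.052 by edgeR). By CPM with no length correction NRG1 ranked 5 and HBEGF 6 among the members, followed by EREG at 7, AREG at 8 and BTC at 9. Depth limits AREG, EREG, BTC and EPGN, whose counts were between 3 and 58 in each library.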
